A study of Glycine max with 54 samples.

Results

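The comparison described here sets seeds of the soybean variety Archer against seeds of the variety Minsoy, both 3.5 mm long and both from the 2008 field season. It rests on 6 Affymetrix soybean arrays of the 54 in the series, 3 of Archer and 3 of Minsoy, chosen by line, seed length and year in the sample titles. Of 37570 probe sets that are not controls, the 24037 that reached log2 5 on 3 or more of these 6 arrays were tested, and the other 13533 were not. A difference is given as the log2 value in Archer minus that in Minsoy, so that 1 stands for 2-fold, and a probe set was called at an adjusted p under 0.05 in limma (Benjamini-Hochberg over all tested probe sets).

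Both lines are inbred varieties and are the parents of a cross. The plants stood in a field in Minnesota and received no treatment. In 2008 each line was planted in 3 blocks, 1 to 2 weeks apart, and each array holds whole seeds pooled from both rows of a line in a block, so that a replicate number stands for a planting block. The seeds at 2 mm and 5-6 mm of the same plants, the 3.5 mm seeds of both parents in 2007 and the 3.5 mm seeds of a high yield and a low yield recombinant inbred line from the cross (2007, 3 arrays each) are used below only to follow the probe sets called here. High and low yield stand here for 1 inbred line each, and a difference is one between that pair of lines, not one of yield in general. Which arrays were processed together is not stated. From their lowest values, the 2007 parents, the 2008 parents and the recombinant lines were taken as sets processed apart, and levels are compared only within each of these sets.

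A soybean seed of this length stands near the start of seed filling. The cell divisions that build the embryo give way to cell expansion, and the cotyledons begin to make storage proteins, oil and protease inhibitors under regulators such as LEC1 and WRI1. The seed coat around them moves sugars and amino acids to the embryo, and it is also the main site of proanthocyanidins and of many flavonoids. Since whole seeds were extracted, fewer cells of a type and less RNA per cell cannot be told apart in these values.

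Few probe sets separated the lines, and those that did differed widely. limma called 162 of the 24037 tested probe sets (0.674%), of which 80 were higher in Archer (0.333%) and 82 were lower (0.341%). Of the 162, 131 differed by 2-fold or more (66 higher and 65 lower in Archer) and 29 by 16-fold or more (18 higher and 11 lower). Their median size was 1.80 on the log2 scale, with a range of sizes up to 7.72 higher and -6.72 lower, and the smallest was 0.58. In all 162 the 3 Archer values lay apart from the 3 Minsoy values, against 15.2% of all tested probe sets, and the difference had the same sign in the 3 planting blocks. The 162 were selected on these same arrays, which largely fixes the first result, and the second follows from the first. With the planting block in the model (a replicate block) limma called 79 probe sets, 69 of them among the 162. Each block holds 1 array per line, so the block changes the spread and leaves every difference as it was. Over all tested probe sets the median difference was -0.04, the quartiles were -0.17 and 0.08, and 2440 had an unadjusted p under 0.05.

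In 54 of the called probe sets only one line had values at the level of the filter. The counts were 33 for Archer alone and 21 for Minsoy alone, where 86 of all tested probe sets (0.358%) had this pattern. A probe set that is low in one line can enter the test only through the line where it is high, so these counts are a description. Of the 162, 40 have 1 gene in the annotation (10 higher and 30 lower in Archer) and 122 have none (70 higher and 52 lower). The 40 stand for 33 genes, 13 with a descriptive symbol and 20 with an identifier only. The share of tested probe sets called was 0.691% among those with no gene and 0.626% among those with 1 gene, so that the number without a name reflects the make-up of the array.

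The 6 arrays did not fall into lines over all probe sets. Median values lay between 7.22 and 7.32, and 63.5% to 63.9% of the non-control probe sets were at log2 5 or more on each array. Archer replicate 1 correlated more closely with the Minsoy arrays (mean r = 0.978) than with the other Archer arrays (mean r = 0.972). On the first principal component, which held 47.4% of the variance, it stood at -13.7 beside the Minsoy arrays at -42.5, -26.2 and -9.78, while Archer replicates 2 and 3 stood at 45.4 and 46.8. Without Archer replicate 1 the number called was 230, of which 138 were lower in Archer.

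The arrays also differed in seed stage. A stage score was computed for each array from 200 probe sets that rise and 200 that fall between 2 and 5-6 mm in the parents of 2007. It was 1.52, -1.46 and -2.32 in Archer replicates 1, 2 and 3, against 1.46, -0.60 and 1.07 in Minsoy replicates 1, 2 and 3. The score means were -0.75 ± 2.01 in Archer and 0.64 ± 1.09 in Minsoy (SD, n = 3 each), a difference of -1.40 (two-sided exact permutation test, p = 0.4, the smallest possible being 0.1). The lines overlapped, and the score of Archer replicate 1 was the highest of all, just above that of Minsoy replicate 1.

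The genes of seed filling varied widely within each line. They rise steeply between the lengths from which the score was made (the storage genes by a median of 9.92 in 2007), so that they are no separate measure of stage. GY1, a glycinin and one of the main storage globulins, read 13.27, 1.96 and 5.23 in Archer against 12.55, 7.56 and 11.70 in Minsoy (adjusted p = 0.706). GM2S-1, a 2S albumin, read 9.34, 3.74 and 4.37 in Archer against 9.45, 5.37 and 8.87 in Minsoy (adjusted p = 0.726). The beta-conglycinin gene CG-1 read 8.95, 2.80 and 2.58 in Archer, with 7.82, 3.32 and 7.56 in Minsoy. In each of these genes Archer replicate 1 and Minsoy replicates 1 and 3 were high and the other arrays low, so that the spread within a line exceeded the difference between lines.

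**Figure D1:**
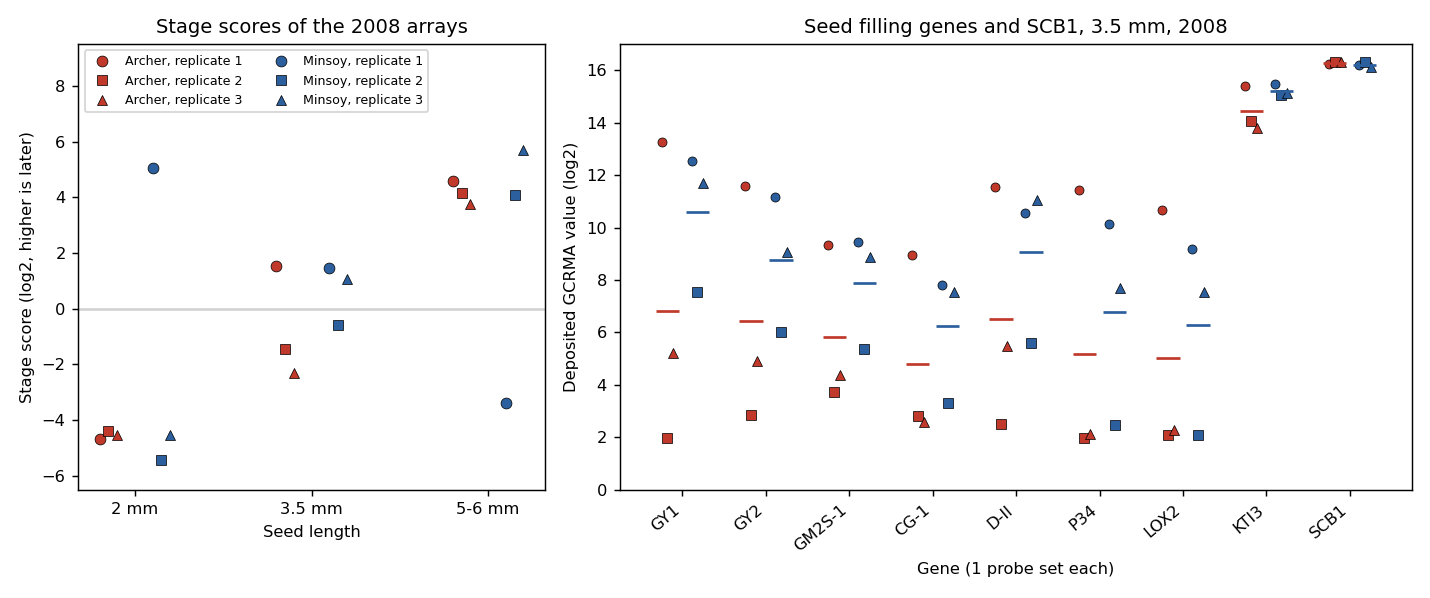
Left, stage score (log2, higher is later) of each 2008 array by seed length, Archer in red and Minsoy in blue, symbols for replicates. Right, deposited log2 values of 8 seed filling genes and of SCB1 in the 6 arrays of 3.5 mm seeds, bars at the means of 3 arrays: Archer replicate 1 lies with or above Minsoy replicate 1, and the lines overlap for each gene shown.

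By list, 5 of 11 storage globulin and albumin genes passed the filter and 0 were called, with a median difference of -2.08 beside -0.04 for all tested probe sets. Among late embryogenesis and seed maturation genes 0 of 13 were called (median -0.81). The lines did not overlap in 1 of these (7.69%), against 15.2% of all tested probe sets. It was PM29, at 10.15, 8.40 and 9.45 in Archer against 7.98, 6.64 and 7.14 in Minsoy (adjusted p = 0.257). Protease inhibitors and seed defence proteins had 0 of 7 called (median -0.62), among them the inhibitor D-II at 11.53, 2.51 and 5.47 in Archer against 10.56, 5.60 and 11.05 in Minsoy. The same held for both seed lipoxygenases (median -0.99), for 19 genes of fatty acid and triacylglycerol synthesis (median -0.14) and for 5 seed regulators (median -0.50), none of which was called. Of all tested probe sets with 1 gene 0.626% were called. At that share a count of none says little about lists of these lengths, here and below.

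Of 3 seed coat markers, the seed coat peroxidase gene Ep, the hydrophobic protein gene HPS and the BURP domain gene SCB1, 0 were called (median -0.57). HPS read 11.16, 11.88 and 8.28 in Archer against 10.35, 13.84 and 10.43 in Minsoy (difference -1.10, adjusted p = 0.804), Ep differed by -0.57 (adjusted p = 0.70), and SCB1 lay between 16.13 and 16.32 on all 6 arrays. Of 16 photosynthesis genes 0 were called (median -0.33), as were 0 of 11 vegetative storage, lipoxygenase and jasmonate genes by their brightest probe set (median -0.02).

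The flavonoid pathway held 1 gene called in each direction. UGT708D1, a C-glucosyltransferase that attaches glucose to flavonoid precursors, read 8.51, 9.05 and 8.93 in Archer, against 3.42, 2.95 and 4.81 in Minsoy. All Archer arrays were well above the filter and all Minsoy arrays below it. The difference was 5.10 (SE 0.48, adjusted p = 0.0115), or 34.4-fold on this scale, the exact size of which is uncertain because the Minsoy values are near the low end. LAR1, the leucoanthocyanidin reductase that makes catechin units of proanthocyanidins, read 9.56, 9.14 and 9.05 in Archer, against 12.39, 12.10 and 12.24 in Minsoy. It was lower in Archer by 3 log2 units (difference -3.0, SE 0.16, adjusted p = 0.001445), with more than 2 units between the closest arrays of the lines.

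No other gene of the list was called: UGT708D1 was the 1 gene higher and LAR1 the 1 gene lower of 32 phenylpropanoid and flavonoid genes tested (median -0.15). Beside this stands the 0.626% called of all tested probe sets with 1 gene, and such list counts are a description. The 2 next largest values belonged to CHS8, a chalcone synthase at the entry of the pathway, and CHI1B1, a chalcone isomerase. CHS8 read 12.13, 12.84 and 13.31 in Archer against 11.26, 11.55 and 11.66 in Minsoy (difference 1.27, adjusted p = 0.232). CHI1B1 was at 8.28 in Archer replicate 1 and between 4.54 and 5.71 on the other arrays (adjusted p = 0.702). LAR1 kept its call in 17 of 17 alternative settings, and UGT708D1 in 12 of 17; UGT708D1 was lost, among others, without Archer replicate 2 (adjusted p = 0.0851), without Archer replicate 3 (0.0870) and without Minsoy replicate 1 (0.1003), at sizes of at least 4.72.

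**Figure D2:**
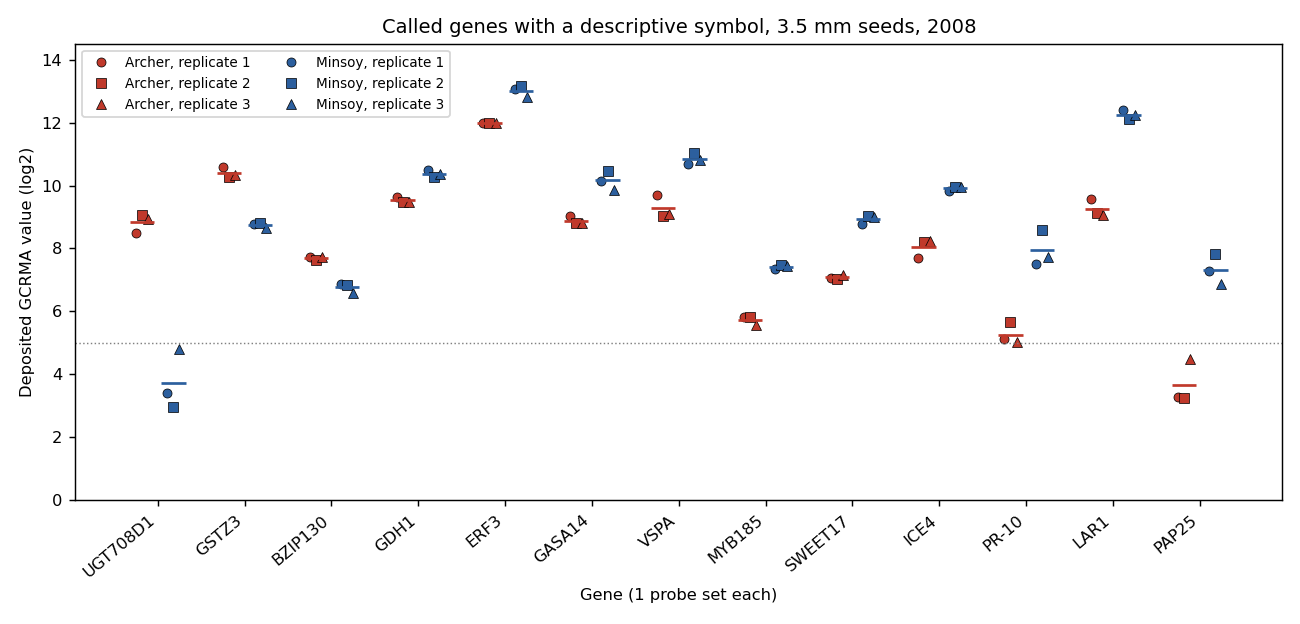
Deposited log2 values of the 13 called genes with a descriptive symbol in 3.5 mm seeds of 2008, Archer in red to the left and Minsoy in blue, 1 symbol per array and a bar at the mean of 3 arrays. The dotted line marks the filter at log2 5; UGT708D1, GSTZ3 and BZIP130 are higher in Archer and the other 10 are lower, and in each the lines do not overlap.

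Of the lists for sugars, for nitrogen and for vegetative storage, 3 genes had called probe sets, each of them lower in Archer. SWEET17, of the SWEET family of sugar transporters, read 7.06, 7.03 and 7.16 in Archer, against 8.77, 9.02 and 9.01 in Minsoy. The difference was -1.85 (SE 0.10, adjusted p = 0.0016), and it was the only 1 of 13 sugar transport, sucrose and starch genes called (median -0.05). A second probe set of SWEET17 read 7.73, 6.68 and 6.65 in Archer with 8.71, 8.74 and 7.40 in Minsoy, and was not called (adjusted p = 0.454). In the same list CIF1, an inhibitor of invertase, differed by -0.47 and the sucrose transporter SUT1 by -0.45, neither of them called. The call of SWEET17 held on leaving out any single array and was lost where the spread was taken from all 18 arrays of 2008 (adjusted p = 0.619) or all 54 (0.788).

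GDH1, a glutamate dehydrogenase that links amino acid and carbon metabolism, read 9.65, 9.49 and 9.47 in Archer, against 10.48, 10.27 and 10.38 in Minsoy. It was lower in Archer (difference -0.84, SE 0.10, adjusted p = 0.0277) and was the only 1 called of 24 genes of nitrogen assimilation and amino acids (median -0.12). The glutamine synthetase genes GS1GAMMA2 (difference -1.02, adjusted p = 0.403) and GS1-GAMMA (-0.65, adjusted p = 0.556) were the next largest. The other probe sets of GDH1 differed by -0.63 and -1.36 and did not pass. Its call was lost with the replicate block (adjusted p = 0.114) and on leaving out any array but Archer replicate 1, while the difference stayed between -0.93 and -0.76.

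VSPA, a vegetative storage protein that leaves and pods hold as a nitrogen reserve, was lower in Archer on each of its 5 probe sets, by -1.06 to -1.57. On the brightest of the 2 called probe sets it read 9.69, 9.04 and 9.09 in Archer, against 10.69, 11.02 and 10.81 in Minsoy (difference -1.57, SE 0.20, adjusted p = 0.0369). The brightest of all 5 missed the threshold (difference -1.37, adjusted p = 0.0537). Probe sets of VSPA end in _s_at, the array's mark for probes shared by several transcripts, so that signal of closely related genes cannot be told apart from it. The call was lost with the replicate block (adjusted p = 0.138) and on leaving out any array but Archer replicate 1.

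These 3 genes and LAR1 also moved with seed length. Between 2 and 5-6 mm in the parents of 2007, SWEET17 rose by 2.84, VSPA by 2.35, LAR1 by 1.49 and GDH1 by 0.97 (adjusted p of at most 0.0099), and 2 of 3 Archer arrays had earlier stage scores than the Minsoy arrays. PAP25, also lower in Archer, fell with length by 2.63, and the 3 probe sets of ERF3 changed with length by -0.38 (adjusted p = 0.00799), -0.18 (0.178) and 0.34 (0.0278). With the stage score as a covariate SWEET17 and LAR1 stayed called, at -1.90 and -2.81. VSPA (adjusted p = 0.123) and GDH1 (0.0838) were not called with it, while their differences stayed close to those without it, at -1.43 and -0.76. Over all called probe sets, 62 were also called with seed length in 2007, and 32 of these (51.6%) had the sign of younger Archer seeds: negative for those that rise with length, positive for those that fall. The share was 60.5% of the 13085 tested probe sets that were called with length. Among the 1390 of these with an unadjusted p under 0.05 between the lines (limma) it was higher, at 69.2%. With the stage score as a covariate 83 probe sets were called, 77 of them among the 162.

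Among regulators of transcription 4 genes were called. ERF3, an ethylene response factor, was lower in Archer on its 3 probe sets, all of them called. On the brightest it read 11.99 on each of the 3 Archer arrays, against 13.07, 13.18 and 12.81 in Minsoy (difference -1.03, SE 0.11, adjusted p = 0.0219). The second read 11.24, 11.07 and 11.03 in Archer against 12.40, 12.53 and 12.23 in Minsoy (difference -1.27, adjusted p = 0.00982), and the remaining one differed by -1.49 (adjusted p = 0.00904). ICE4, of the bHLH family named for induction of CBF genes in the cold in Arabidopsis, read 7.7, 8.2 and 8.23 in Archer, against 9.83, 9.94 and 9.97 in Minsoy. Its difference was -1.87 (SE 0.16, adjusted p = 0.00829). ICE4 and ERF3 were the 2 called of 9 DREB, ICE and ERF factors (median 0.00), where 0.626% of all tested 1-gene probe sets were called.

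MYB185, of the MYB family, read 5.81, 5.81 and 5.56 in Archer, against 7.34, 7.49 and 7.44 in Minsoy (difference -1.69, SE 0.11, adjusted p = 0.00262). It was the 1 of 38 MYB factors called (median -0.07), followed by MYB68 (difference -1.09, adjusted p = 0.290) and MYB179 (-0.83, adjusted p = 0.178). BZIP130, a basic leucine zipper factor, was the only regulator higher in Archer among those called. It read 7.74, 7.64 and 7.74 in Archer, against 6.86, 6.84 and 6.59 in Minsoy (difference 0.94, SE 0.11, adjusted p = 0.0224), 1 of 41 bZIP factors (median -0.01).

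Of these 4 regulators MYB185 kept its call in every setting tried. ERF3 on its brightest probe set (adjusted p = 0.114) and BZIP130 (0.126) were not called with the replicate block, and both were lost on leaving out any array but Minsoy replicate 3. ICE4 was lost without Minsoy replicate 1 (adjusted p = 0.0650) or Minsoy replicate 2 (0.0614). None of 15 WRKY, 8 NAC and 5 MADS factors was called, with list medians of 0.04, 0.01 and -0.02.

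The remaining named calls are genes of defence, detoxification, phosphate use and small signalling peptides. PR-10, of the pathogenesis-related class 10 proteins, read 5.11, 5.65 and 5.02 in Archer, against 7.49, 8.59 and 7.72 in Minsoy (difference -2.68, SE 0.32, adjusted p = 0.0289), 1 of 6 defence genes tested. PAP25, a purple acid phosphatase of a family that frees phosphate from organic compounds, read 3.29, 3.23 and 4.47 in Archer, against 7.28, 7.84 and 6.86 in Minsoy (difference -3.66, SE 0.40, adjusted p = 0.0218). Its brighter probe set differed by -2.95 and just missed the threshold (adjusted p = 0.0504), so that the phosphatase and phosphate list shows 0 of 6 genes by brightest probe set. All 3 of its Archer values on the called probe set lay under the filter.

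GSTZ3, a zeta class glutathione S-transferase, read 10.58, 10.26 and 10.33 in Archer, against 8.79, 8.82 and 8.66 in Minsoy. It was higher in Archer (difference 1.63, SE 0.12, adjusted p = 0.00378) and the 1 called of 16 glutathione S-transferases (median -0.11). Its other probe set, with an _s_at ending, read 8.69, 8.57 and 8.71 in Archer against 8.57, 8.49 and 8.35 in Minsoy (difference 0.19, adjusted p = 0.578), so the 2 probe sets of the gene disagree in size. GASA14, of the small cysteine-rich peptides that gibberellin induces in Arabidopsis, read 9.03, 8.82 and 8.80 in Archer, against 10.15, 10.48 and 9.86 in Minsoy (difference -1.28, SE 0.17, adjusted p = 0.0453). Its 2 brighter probe sets differed by -1.20 and -1.55 and did not pass, and 0 of 14 GASA genes were called by brightest probe set (median -0.27).

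GSTZ3 kept its call in 17 of 17 settings. PAP25 (adjusted p = 0.121) and GASA14 (0.122) were lost with the replicate block, PAP25 also on leaving out any array but Archer replicate 3, GASA14 any but Minsoy replicate 3 and PR-10 any but Minsoy replicate 2. None of these genes changed sign in any setting, but with lines that do not overlap most settings could not turn a sign. No member was called of the lists for cell wall (9 genes tested), hormones (18), photoperiod and clock (9), heat shock (14), aquaporins (18), glyoxalases (6), cytochromes P450 (10) and cell cycle and histones (3). With 0.626% called among all tested probe sets with 1 gene, this says little about lists so short.

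The widest differences belonged to probe sets with an identifier only or with no gene. LOC100500577 on its brightest probe set read 10.02, 9.51 and 9.56 in Archer, against 1.96, 1.96 and 2.01 in Minsoy, where 1.96 is the lowest value of the 2008 data. The difference was 7.72 (SE 0.15, adjusted p = 6.45e-05), the largest of the comparison. Of the probe sets without a gene, GmaAffx.77896.1.S1_at read 10.10, 10.63 and 10.50 in Archer against 2.46, 2.46 and 5.09 in Minsoy (difference 7.07, SE 0.73, adjusted p = 0.0171). Gma.16575.2.S1_s_at differed by 6.32 (SE 0.49, adjusted p = 0.00585). These probe sets were at about log2 10 in Archer and mostly near the low end in Minsoy.

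In the other direction LOC100791698 read 4.62, 4.11 and 4.57 in Archer, against 10.53, 10.14 and 9.94 in Minsoy (difference -5.77, SE 0.20, adjusted p = 0.000242). LOC100819853 read 5.96, 7.31 and 4.42 in Archer, against 11.19, 11.25 and 10.62 in Minsoy (difference -5.12, SE 0.70, adjusted p = 0.0465). Gma.897.1.S1_at read 6.67, 6.45 and 6.68 in Archer, against 11.87, 11.53 and 11.91 in Minsoy (difference -5.17, SE 0.14, adjusted p = 0.00012), and Gma.5873.1.S1_at differed by -5.08 (SE 0.29, adjusted p = 0.0016). Of these 7 probe sets, LOC100819853 lost its call with the replicate block (adjusted p = 0.0575) and on leaving out any array but Archer replicate 2. GmaAffx.77896.1.S1_at lost it without Archer replicate 2 or 3 or Minsoy replicate 1 or 2, at sizes of 6.63 or more.

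For genes with several probe sets, the probe sets did not always tell the same story. Of the 33 called genes 16 have more than 1 tested probe set, in 2 of these all were called, and in 13 all had the same sign. Both genes with calls in opposite directions are known by identifier only. LOC100500577 was higher in Archer on the probe set above and lower on its 2 others. On Gma.4744.1.S1_a_at it read 2.00, 2.81 and 2.00 in Archer, against 9.07, 8.68 and 9.22 in Minsoy (difference -6.72, SE 0.27, adjusted p = 0.000338), and on Gma.4744.1.S1_x_at it differed by -4.85 (adjusted p = 0.00066). One probe set was thus near the low end in Minsoy and the others in Archer.

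LOC547605 showed the same within 5 probe sets. On Gma.1464.1.S1_at it read 9.27, 9.15 and 9.19 in Archer, against 5.51, 5.34 and 6.21 in Minsoy (difference 3.51, SE 0.23, adjusted p = 0.00301). On Gma.16971.2.A1_s_at it read 1.96, 2.03 and 1.96 in Archer, against 6.59, 6.64 and 6.94 in Minsoy (difference -4.74, SE 0.12, adjusted p = 0.00012). The other 3, 2 of them at values of 13.59 to 15.36, differed by 0.02, -0.34 and -0.51 and were not called. Of 1194 tested genes with several probe sets, these 2 were the only ones that differed by 2-fold or more in both directions.

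LOC100791698 differed by -5.77 and -1.88 on 2 called probe sets and by -0.62 and -0.03 on the other 2. LOC100819853 differed by -5.12 on its called probe set and by -1.66 on its other one (adjusted p = 0.430). By contrast ERF3 and VSPA ran the same way on all of theirs. Whether the lines differ in the sequence under single probes was not tested, and a difference on 1 probe set of such a gene is a difference of that probe set.

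**Figure D3:**
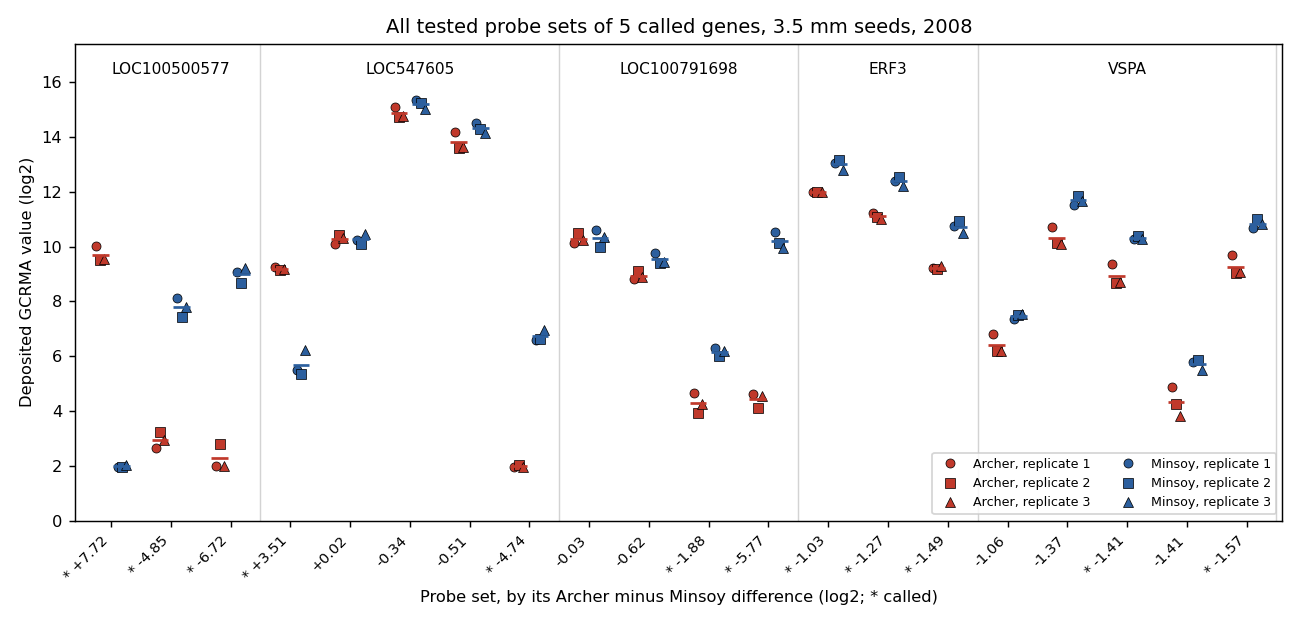
Deposited log2 values on every tested probe set of 5 called genes in 3.5 mm seeds of 2008, Archer in red to the left and Minsoy in blue, bars at the means of 3 arrays. Below each probe set stands its Archer minus Minsoy difference, with an asterisk where it was called: LOC100500577 and LOC547605 carry calls of both signs, ERF3 and VSPA differences of 1 sign.

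At the neighbouring seed lengths the called probe sets differed in much the same way. Before these values, 2 arrays need mention: Minsoy replicate 1 had a stage score of 5.06 at 2 mm, where the other 5 arrays lay between -5.45 and -4.40, and of -3.38 at 5-6 mm, where the others lay between 3.75 and 5.71. Both go against their label. At 2 mm 76 probe sets were called (0.316%), 62 of them among the 162, and without that Minsoy array 141 (0.587%), 86 of them among the 162. At 5-6 mm 62 were called (0.258%), 49 of them among the 162, and without the Minsoy array 84 (0.349%), 56 of them among the 162. At both lengths 161 of the 162 had the sign seen at 3.5 mm, against 68.5% and 57.9% of all tested probe sets (159 and 161 without those arrays).

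The sizes were close as well. The median ratio of the difference to that at 3.5 mm was 1.00 at 2 mm and 0.91 at 5-6 mm with all arrays, and 1.01 and 0.99 without the doubted ones. A test of whether the line difference itself changed with length called 0 probe sets (0%) for 3.5 against 2 mm and 0 (0%) for 3.5 against 5-6 mm, with 342 and 1242 at an unadjusted p under 0.05, and again 0 for each (0%) without the doubted arrays, with 780 and 1987. These 3 comparisons share no array, but the seeds come from the same plants and planting blocks.

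Single genes passed the test at both lengths, at one or at neither, and whether these differ was tested only as given above. UGT708D1 differed by 5.81 at 2 mm (adjusted p = 0.000384) and 5.80 at 5-6 mm (0.0250) without the doubted arrays, and GSTZ3 by 1.66 (0.0213) and 1.62 (0.0482). With all arrays both were called at both lengths too. ERF3 (-1.20 and -1.22) and ICE4 (-2.24 and -1.17) were called at both lengths without the doubted arrays. With all arrays ERF3 was called at 2 mm (adjusted p = 0.0153) and not at 5-6 mm (0.0525), and ICE4 at neither (0.342 and 0.268). Without the doubted arrays LAR1 differed by -2.41 at 2 mm (adjusted p = 0.0656) and -3.27 at 5-6 mm (0.0252), and PAP25 by -3.96 (0.00386) and -2.22 (0.238), and with all arrays neither gene was called at either length (adjusted p of at least 0.0870). PR-10 differed by -1.76 (adjusted p = 0.616) and -0.37 (0.778), VSPA by -0.66 (0.683) and -0.88 (0.283), neither called at either length, with or without the doubted arrays.

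**Figure D4:**
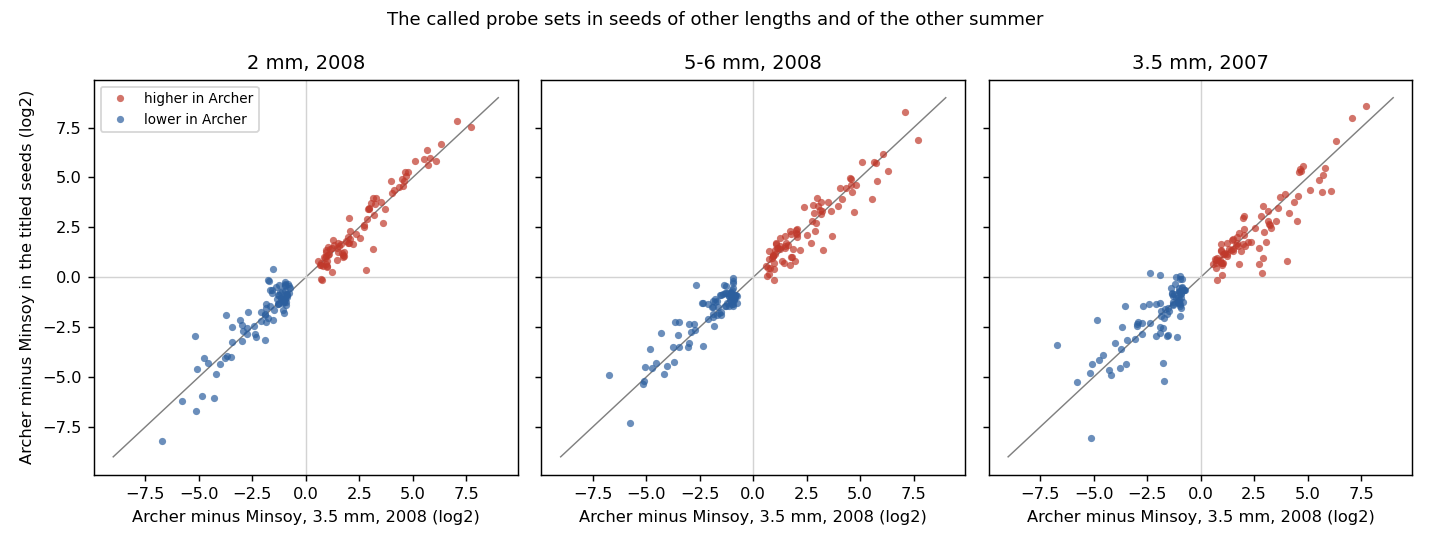
Archer minus Minsoy differences (log2) of the 162 called probe sets in 2 mm and 5-6 mm seeds of 2008 and in 3.5 mm seeds of 2007, each against the difference in 3.5 mm seeds of 2008, without Minsoy replicate 1 (both 2008 lengths) and Minsoy replicate 2 (2007). The grey diagonal marks equal differences; 159, 161 and 158 of the 162 points have the same sign on both axes.

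The summer of 2007 gives the same contrast in other plants and other arrays, each line then being a single row. limma called 136 of the same 24037 probe sets (0.566%), and 43 of them were among the 162, which is 26.5% of the 162 and 31.6% of the 136. The sign was the same in 158 of the 162, against 67.5% of all tested probe sets, and the median ratio of the differences was 0.83. LAR1 read 9.33, 9.57 and 9.37 in Archer, against 11.76, 12.23 and 11.98 in Minsoy in 2007 (difference -2.56, adjusted p = 0.00262). BZIP130 read 8.31, 8.35 and 8.24 in Archer, against 6.77, 6.81 and 6.53 in Minsoy (difference 1.60, adjusted p = 0.00465). ERF3 (-0.99), ICE4 (-1.76), PAP25 (-2.84) and VSPA (-2.73) were also called in 2007.

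UGT708D1 was not called in 2007. It read 10.06, 9.98 and 10.09 in Archer, against 5.69, 8.58 and 5.62 in Minsoy (difference 3.41, adjusted p = 0.182). Minsoy replicate 2 of 2007 stood out in the same way on other probe sets. Over the 71 called probe sets of 4-fold or more, its value lay past the midpoint between the other Minsoy arrays and the Archer mean in 25, of which 22 are among the 42 higher in Archer and 3 among the 29 lower in Archer. The 5 other 3.5 mm arrays of 2007 passed that midpoint in 0 to 4 of the 71. The 6 arrays of 3.5 mm seeds of 2008 passed it in 0, which is largely fixed because the 71 were chosen on them.

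Without Minsoy replicate 2 of 2007, 121 probe sets were called (0.503%), 49 of them among the 162, and the median ratio was 0.92. UGT708D1 then differed by 4.39 (adjusted p = 0.000578). ERF3 (adjusted p = 0.0672), ICE4 (0.120) and PAP25 (0.0579) were then not called, with differences of -1.08, -1.69 and -2.51 and 2 Minsoy arrays left. With all arrays, 15 probe sets were called in all 4 comparisons of the parents, and 73 of the 162 in none of the other 3. Leaving out the arrays named here as doubtful in each comparison, 25 were called in all 4. Among these were UGT708D1, 2 probe sets of ERF3, LOC100500577 (higher in Archer), LOC100791698, and the LOC547605 probe set that is lower in Archer. Minsoy replicate 2 of 2007 was singled out on probe sets among the 162, so closer agreement without it is no separate evidence. Without the doubtful arrays, 55 of the 162 were called in none of the other 3. They include the called probe sets of GDH1, SWEET17, MYB185, PR-10 and GASA14. The 2 brighter probe sets of GASA14, not called here, were called in 2007 with all arrays, at -1.20 (adjusted p = 0.0204) and -1.51 (0.0104).

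A test of the difference between the years called 52 probe sets (0.216%), 37 with a higher and 15 with a lower Archer minus Minsoy difference in 2008, and 5 of them are among the 162. Of the named probe sets called here, none passed this test (lowest adjusted p = 0.237, for BZIP130). The other probe set of LOC100819853, Gma.3260.1.S1_at, did pass (change 4.14, adjusted p = 0.0480). It differed by -5.80 in 2007 and by -1.66 in 2008. The descriptive genes that did change were the MYB factor gene MYB60 and the aquaporin genes SIP1-3 and SIP1-4, none of them called at 3.5 mm in 2008. SIP1-4, a small basic intrinsic protein, read 4.90, 5.35 and 5.25 in Archer against 5.16, 5.12 and 5.17 in Minsoy in 2008, and 8.61, 8.57 and 8.59 in Archer against 5.86, 5.54 and 5.31 in Minsoy in 2007. The line difference of 2007 (3.02, adjusted p = 0.00139) had no counterpart in 2008 (0.02). In 2008 SIP1-4 lay close to the filter level in both lines, and the same value, 5.11525, recurred on arrays of both lines. A lack of signal and a lack of difference in 2008 cannot be told apart.

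In the recombinant lines most of the called probe sets of 4-fold or more fell into 2 kinds, and the smaller ones were not sorted. Of the 71 that differed by 4-fold or more between the parents, 30 differed between the high and the low yield line in the same direction by at least 0.5 of the parental difference. In 39 the difference between the recombinant lines was at most 0.25 of the parental one in either direction, 1 lay between these bounds and 1 ran the opposite way by at least 0.5. With replicate 2 of each line alone the counts were 29, 32, 8 and 2, so that more probe sets lay in neither kind. RNA quality differed among these arrays by the control for actin, where the probe set at the 3 prime end exceeded that at the 5 prime end by 3.07, 1.74 and 2.96 for high yield and by 3.30, 1.38 and 3.36 for low yield; its part in the counts was not tested beyond the count from replicate 2. Between these lines limma called 32 probe sets (0.133%), 12 of them among the 162.

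UGT708D1 read 9.74, 9.44 and 9.77 in the high yield line, against 3.43, 2.45 and 3.53 in the low yield line (difference 6.51, adjusted p = 0.00293). LOC100500577 had all 3 of its probe sets called there, with the directions of the parents: 8.32, -6.81 and -8.52. ICE4 (-2.30), PAP25 (-4.37), BZIP130 (2.12), LAR1 (-2.05) and LOC100819853 (-7.16) differed in the parental direction without passing the test (adjusted p of at least 0.101). GSTZ3 (0.02), MYB185 (-0.06) and GmaAffx.77896.1.S1_at (0.06) differed little between them.

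Where the recombinant lines differed, the high yield line mostly took the direction of Archer. Of the 162, 64 differed by 2-fold or more between the recombinant lines in the parental direction, 2 in the opposite direction and 96 by less. Of all 738 tested probe sets that differed by 2-fold or more between the recombinant lines (3.07% of those tested), 70.3% had the sign of the parental difference. Of the 2 opposite cases, Gma.8408.1.A1_at, a probe set with no gene, differed by 4-fold or more between the parents. It read 4.08, 4.48 and 4.46 in Archer against 9.0, 8.94 and 8.76 in Minsoy, and 8.89, 9.76 and 10.25 in the high yield line against 5.45, 4.28 and 6.14 in the low yield line. The other was a called probe set of VSPA, at -1.41 in the parents and 2.34 in the recombinant lines (adjusted p = 0.990). It read 11.03, 10.57 and 12.90 in the high yield line against 8.93, 9.20 and 9.36 in the low yield line. The remaining probe sets of VSPA differed by -0.02 to 0.56 between these lines.

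**Figure D5:**
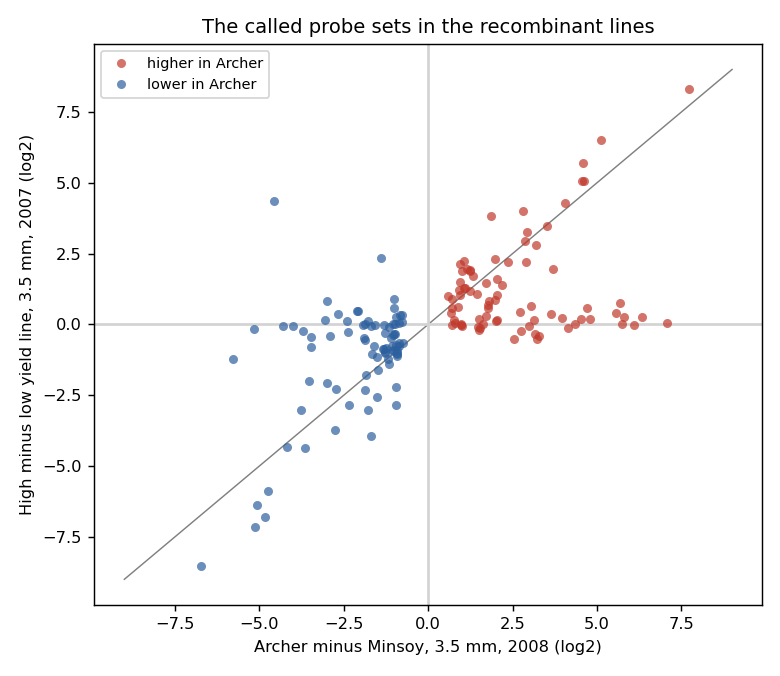
High minus low yield line difference in 3.5 mm seeds of 2007 (log2, vertical) against the Archer minus Minsoy difference in 3.5 mm seeds of 2008 (log2, horizontal) for the 162 called probe sets, red where higher and blue where lower in Archer; the grey diagonal marks equal differences. Most points lie near the diagonal or near 0 on the vertical axis, and Gma.8408.1.A1_at lies alone at -4.56 and 4.35.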

How the data were processed

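Each array measured total RNA of whole seeds, labelled as biotinylated cRNA per the labels' protocols. The deposited values are log2 signals per probe set, made by the authors with GCRMA, per the submitters' processing notes; its version is not given in the sources used here. The arrays processed together are not stated. Lowest values (1.96 in both parental sets, differing in later decimals, and -1.56 in the recombinant lines) were read as 3 sets processed apart, so that only differences within a set were used. The number of arrays limits the precision, and no probe set has a detection call here.

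Control probe sets (126 Affymetrix, 48 ribosomal RNA) were left out. Of the non-control probe sets the given platform annotation names 1 gene for 8677, several for 370 and none for 28523; symbols were updated through RefSeq (8652 matched), and 6388 tested probe sets have 1 gene (4748 genes; 720 with a descriptive symbol). No sequences or coordinates were used.

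With R 4.3.3 and limma 3.58.1, group means were fitted to the 6 arrays alone, since other groups hold arrays whose stage goes against their label, followed by eBayes and Benjamini-Hochberg adjustment. Year and length contrasts used the 12 and 18 arrays they concern. Per the labels 2008 replicate numbers are planting blocks, so they pair arrays; residuals of same-numbered Archer and Minsoy arrays correlated at 0.51, -0.26 and 0.11. In 2007 the numbers carry no stated meaning. A low yield 3.5 mm array, replicate 3, is named differently in its title and description; the title was used.

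Named genes are the called genes with a descriptive symbol (1 probe set each, the brightest called, same sign in all blocks), 2 each way with an identifier only or no gene, up to 2 uncalled members of each list with a called member, and the descriptive genes of the year contrast. Members, lists and rules were chosen with earlier results of these data known, and lists were written by symbol after the annotation had been seen. Lists count each gene by its brightest tested probe set. On simulated data with this design for 24037 probe sets, 60% of changes of 1 and 95% of changes of 2 on the log2 scale were recovered, and 4.32% of calls were false. The simulated noise was independent for each probe set, without the stage and block differences shared by probe sets of the real arrays. These rates check the fit and need not hold for the real arrays.

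Alternatives were the filter, normalization, replicate block, arrays in the fit, eBayes options, array weights, 1-gene probe sets, the stage score as a covariate, and leaving out each array. Fits without arrays of doubted stage, and the fit without Minsoy replicate 2 of 2007 in the counts of shared calls, were chosen after seeing the data.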

Additional observations from a re-analysis of the deposited data

Results flagged for a closer look

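In 8 results the Archer minus Minsoy difference at 3.5 mm was tested to differ between the summers (difference of 2008 minus that of 2007, limma, 12 arrays). For genes, it was -1.36 for MYB60 (SE 0.20, adjusted p = 0.0268), -1.96 for SIP1-3 (SE 0.14, adjusted p = 0.000289) and -3.0 for SIP1-4 (SE 0.21, adjusted p = 0.000277). MYB60 read 6.21, 6.01 and 6.00 in Archer against 6.69, 6.97 and 6.50 in Minsoy in 2008, and 8.40, 8.13 and 7.98 in Archer against 7.59, 7.40 and 7.39 in Minsoy in 2007, so that the sign differed between the summers. SIP1-3 read 9.10, 9.41 and 9.12 in Archer against 9.42, 9.24 and 9.24 in Minsoy in 2008, and 11.84, 11.87 and 11.93 in Archer against 9.98 to 10.04 in Minsoy in 2007. At 2 mm and 5-6 mm in 2008 SIP1-3 and SIP1-4 were not called either. The value 9.23736 of SIP1-3 recurred on Minsoy arrays of 2008, and 5.11525 of SIP1-4 on arrays of both lines. For these 2008 values a lack of signal cannot be told apart from a lack of difference.

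The other 5 are called probe sets of 3.5 mm seeds of 2008 with no gene. Gma.15768.1.S1_at (2.67) and Gma.15768.2.A1_at (3.21) share a name stem; the first read 6.29, 6.28 and 6.28 in Archer against 3.68, 2.91 and 3.67 in Minsoy in 2008, and 2.04, 2.49 and 2.04 in Archer against 1.96, 2.00 and 2.04 in Minsoy in 2007. GmaAffx.12732.1.S1_at changed by 2.1, GmaAffx.64222.1.S1_at by -2.39 and Gma.3964.1.S1_a_at by -1.13. GmaAffx.64222.1.S1_at read 5.29, 6.22 and 5.79 in Archer against 8.18, 8.18 and 8.04 in Minsoy in 2008, and 9.86 to 10.19 in Archer against 9.74 to 10.36 in Minsoy in 2007. All 5 differed in the same direction at 2 mm and 5-6 mm in 2008.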

How the results depend on the processing

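The 162 calls (80 higher, 82 lower in Archer) kept their sign in every setting tried, and the counts moved. The kept sign is no separate evidence. The lines overlap in none of the 162, so the filter, the block or leaving out an array cannot turn it. Without a filter on signal 56 were called (25 higher, 31 lower; 41 among the 162), with the replicate block 79 (44 and 35), with array weights 808 (260 and 548), on 1-gene probe sets only 34 (9 and 25) and with the stage score as a covariate 83 (46 and 37). Leaving out 1 array gave 59 to 230 calls (35 to 92 higher, 24 to 138 lower): 59 without Minsoy replicate 1, 69 and 71 without Archer replicates 2 and 3, and 230 without Archer replicate 1. Quantile normalization and median centring each gave 162 calls, and a filter at log2 7, trended and robust eBayes, the 18 arrays of 2008 and all 54 arrays gave 121, 163, 214 and 131. The 16 arrays of 2008 without the doubted ones gave 356. Of 21 named calls, 7 held in all settings, 7 were lost with the replicate block, and 11 on leaving out some single array. The 2007 count of 136 became 766 with a replicate block, although these numbers have no stated meaning, and 38 to 145 on leaving out 1 array; the year contrast (52) gave 25 with the block and 23 to 59 on leaving out 1 array. At 2 mm the count of 76 became 141 without the array of doubted stage. The causes were not tested. The block changed no call of the length contrasts. GCRMA values at the low end carry no exact fold.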
